A study of Mus musculus with 6 samples.

Results

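The genes described here are 42 genes of RNA polymerase I transcription and ribosome assembly, out of 21938 protein-coding genes of GENCODE M21. They were given as a named list, and each was measured at its promoter, defined as 1 kb either side of any annotated transcription start on mm10. Leukemia stem cells (LSCs) sorted as leukemic granulocyte-macrophage progenitors (L-GMP) from a murine MLL-AF9 acute myeloid leukemia were profiled by ATAC-seq, in which the transposase Tn5 cuts and tags open DNA. The 3 Control samples carried no drug, and the 3 MMF samples were exposed to mycophenolate mofetil for 24 h, all in medium with 20% fetal bovine serum and 10 ng/ml mouse interleukin-3. The MLL-AF9 fusion comes from a retrovirus in the study's model, the labels give the genotype as WT for every sample, and no label says whether the 6 samples came from separate mice, so p-values measure only the spread between these samples. Bulk open-chromatin signal cannot tell a change in every cell from a change in the mix of cells.

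RNA polymerase I transcribes a single kind of gene, the tandem ribosomal DNA repeat, inside the nucleolus. The long precursor RNA is then cut, methylated and pseudouridylated by small nucleolar ribonucleoproteins (snoRNPs) and packed into the small and large ribosomal subunits by assembly factors. The members encode these machines and are themselves transcribed by RNA polymerase II. MMF is a prodrug of mycophenolic acid, which inhibits IMP dehydrogenase and so the synthesis of guanine nucleotides, and the comparison asks whether the promoters of this machinery changed in accessibility when that pathway was blocked.

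All 42 promoters held a peak in all 6 lists, against 11704 of all protein-coding genes (53.4%). Their summits lay close to a start: in 24 members every one of the 6 summits was within 100 bp, and the peaks were 223 to 1466 bp wide. For 11 members the same peak also served the promoter of a neighbouring gene, such as Polr1a with Ptcd3, Gnl3 with Pbrm1 and Bop1 with Hsf1, and the signal there cannot be assigned to either gene. In the 200 bp at the summit the members had a median GC content of 62.0% and a median ratio of observed to expected CpG of 0.896, beside 64.5% and 0.845 over all promoters.

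Of 6 motifs searched on both strands in those 200 bp, the E-box CACGTG, the sequence bound by MYC and other basic helix-loop-helix factors, was found in 10 members (23.8%) and in 8.65% of all promoters. The ETS motif CCGGAAGT was found in 11 members (26.2%) and 8.29% of all promoters, the NRF1 core CGCATGCG in 3 (7.14%) and 3.85%, and TCGCGAGA in 3 (7.14%) and 2.44%. The E-box and ETS shares were not particular to the members. Those of NRF1 and TCGCGAGA rest on 3 members each, too few to tell. Among 129 other ribosome biogenesis genes, described further on, the E-box was found in 20.2%, ETS in 24.0%, NRF1 in 3.88% and TCGCGAGA in 6.20%. The CCAAT box, in 14 members (33.3%) and 33.8% of promoters, and the GC box GGGCGG, in 27 (64.3%) and 61.5%, were about as frequent as elsewhere. A match of letters is a description of the window and says nothing of binding. The E-box nearest the summit is given for the 10 members that held one, with the E-box in capitals, 12 bases on each side and the letters read on the gene's strand from GRCm38.p6, the assembly of mm10.
Rrn3, chr16:13780639-13780668, + strand: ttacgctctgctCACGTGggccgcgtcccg
Fbl, chr7:28169723-28169752, + strand: ggcgctcctttcCACGTGcgaaagcctgag
Nop2, chr6:125131811-125131840, + strand: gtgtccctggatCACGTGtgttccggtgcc
Gnl3, chr14:31018991-31019020, - strand: agttccagttcgCACGTGgcgcccgagaag
Pes1, chr11:3963965-3963994, + strand: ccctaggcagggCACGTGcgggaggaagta
Wdr43, chr17:71616220-71616249, + strand: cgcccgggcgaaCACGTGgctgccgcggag
Utp20, chr10:88826760-88826789, - strand: cggcactaactaCACGTGaggaaaagcagg
Rrp12, chr19:41896148-41896177, - strand: gctgaggacacaCACGTGggttctgccgtg
Nat10, chr2:103761195-103761224, - strand: tgagcacttgccCACGTGctgtctgccact
Mybbp1a, chr11:72441355-72441384, + strand: gtcttctgagccCACGTGtttggctcagca
The E-box lay in an annotated exon in 8 of the 10 and before the start in Rrn3 (60 bp upstream) and Nop2 (84 bp upstream). Of the 13 members that lost 10-kb read density with MMF, described further on, 3 held an E-box (Fbl, Gnl3 and Wdr43). Of the other 29 members 7 held one, among them Utp20 and Rrp12, the 2 members that gained density.

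The members were strong promoters in both groups. Each peak was ranked within its own list by fold enrichment, the pileup at the summit over the local background, so that 100% is the strongest peak of the list. The mean rank over the 6 samples had a median of 92.6% over the members and 84.9% over all promoters with a peak in every list, and 28 members (66.7%) ranked at 90% or above, as did 34.6% of all promoters. Other ribosome biogenesis genes shared this high rank, with a median of 93.6%. The single genes that follow are members. Utp15, a small-subunit assembly factor, had the highest mean rank, at 99.1% both without and with MMF. Ubtf, the HMG-box protein that coats active ribosomal DNA, had the lowest, with ranks of 60.4%, 64.6% and 56.8% in Control and 47.8%, 58.6% and 49.8% in MMF.

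**Figure D1:**
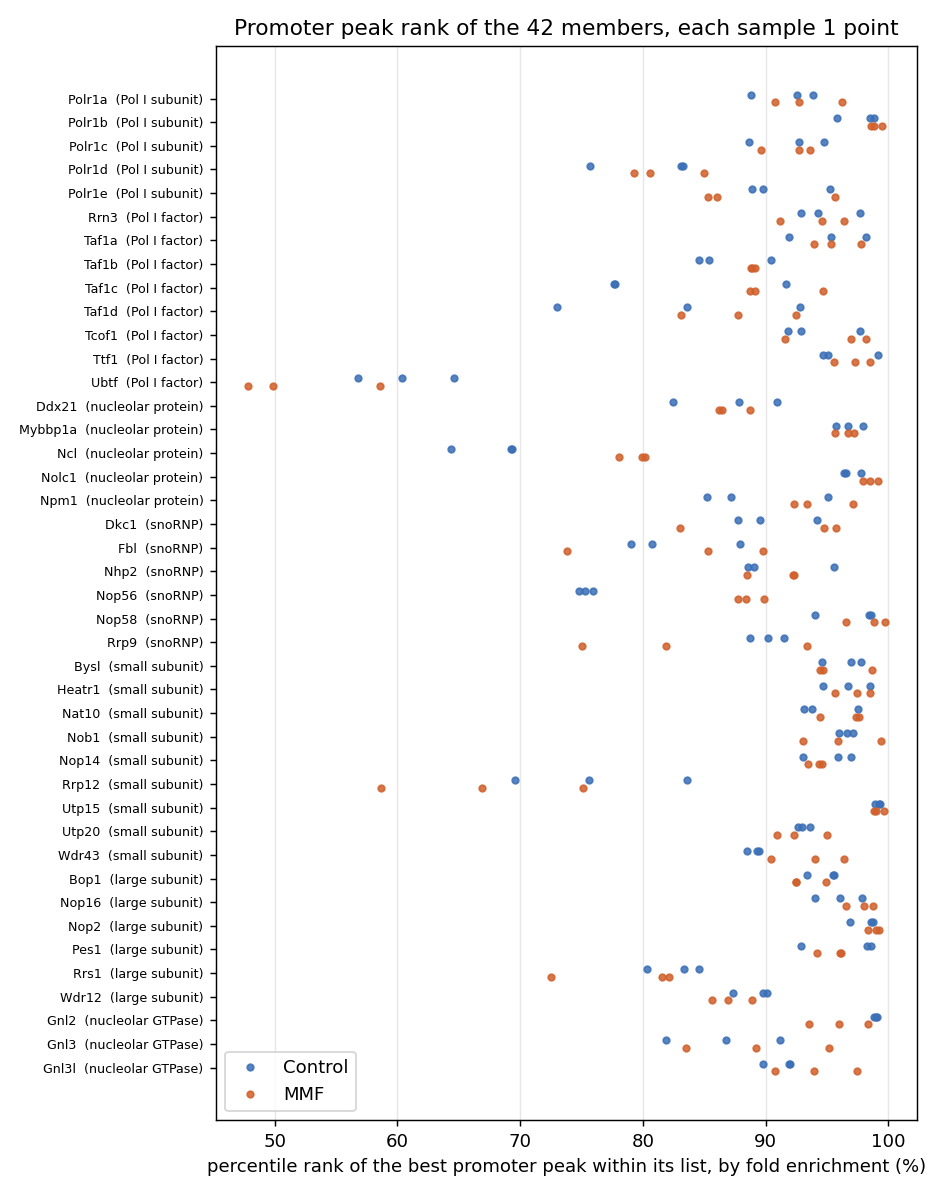
Percentile rank of the best promoter peak within its list (horizontal axis, %) for the 42 members, ordered by role, with 1 point per sample, Control in blue and MMF in orange. Most members sit above 90% in both groups, while Ncl and Nop56 are the members whose MMF points lie farthest to the right of their Control points, and Ubtf and Rrp12 lie lowest.

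By rank, no member passed limma's test (moderated linear model on normal scores of the rank, Benjamini-Hochberg adjusted over 11704 promoters), where 0.265% of all promoters did. Unadjusted p was under 0.05 for 3 members (7.14%) and for 11.9% of all promoters. The difference of MMF minus Control was positive for 24 members and negative for 18, with a median of 0.54 percentage points over the members and -0.33 over all promoters, where 46.0% were positive. The 200 promoters nearest to each member in mean rank had a median difference of -0.27, and 26 members lay above their own neighbours.

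The largest rise was that of Nop56, a core protein of box C/D snoRNPs. It ranked at 74.8%, 75.9% and 75.3% in Control and at 88.4%, 89.9% and 87.7% in MMF, a difference of 13.4 percentage points (limma adjusted p = 0.199). Ncl, which encodes the abundant nucleolar protein nucleolin, followed with 69.4%, 64.4% and 69.3% against 80.2%, 78.0% and 80.0%. The samples of the groups did not overlap for either gene. Without overlap, 4 members were higher with MMF (Ncl, Nop56, Nolc1 and Wdr43) and 1 was lower (Gnl2, a GTPase of large-subunit assembly), where 7.9% of all promoters were higher and 9.7% lower in the same way, so the share of members that were higher (9.52%) was near the background and the share that were lower (2.38%) was under it.

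Other members at the ends of the order had overlapping samples. Taf1c, a subunit of the SL1 factor that recruits RNA polymerase I, ranked at 91.6%, 77.6% and 77.7% in Control and at 88.7%, 94.7% and 89.1% in MMF. Npm1, the nucleolar chaperone nucleophosmin, ranked at 95.1%, 87.2% and 85.2% against 93.4%, 97.1% and 92.3%. Of the members with the most negative differences, Rrp12, an assembly and export factor, had 69.6%, 83.6% and 75.6% in Control and 75.1%, 66.9% and 58.7% in MMF. Ubtf, Rrp9 and Rrs1 differed by -8.52, -6.70 and -3.99 percentage points, also without a call. When every list was cut to its 58496 peaks of lowest p, the length of the shortest list, the median difference of the members became -1.83 and that of all promoters -5.34, and Ubtf was the 1 member called (2.38% of 42), where 5.51% of all promoters were. Its difference was -27.9 percentage points (limma adjusted p = 0.042). The MMF lists held 80893 to 86556 peaks and the Control lists 58496 to 63911, so ranks set against a whole list depend on how many weak peaks it holds.

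The fold enrichment and p of each peak could be solved for the reads at its summit, always whole numbers, which frees the summit from its background. Divided by the genome-wide background of each sample, a measure of its depth, the members' summit reads had medians of 104, 108 and 104 in Control and 89.6, 98.5 and 87.2 in MMF. This was a median log2 ratio of -0.14 over the members and -0.10 over all promoters, with 35 of 42 members and 68.3% of promoters lower. Scaled instead by the sum over promoters, the median of all promoters moved up by 0.13, to 0.03, and the members' to -0.01, with 23 members and 43.6% of promoters lower. The median of the members lay 0.04 below that of all promoters. This distance is the same under either scaling by construction, because a scaling shifts every promoter of a sample alike. Scaled by the background, the 200 promoters nearest to each member in mean rank had a median log2 ratio of -0.12 in summit reads. By this ratio 24 members lay below their own neighbours, which were not matched on summit reads. Within each sample the members' median was above that of all promoters, by 0.44, 0.44 and 0.43 on the log2 scale in Control and by 0.35, 0.36 and 0.27 in MMF, which did not overlap.

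No member passed the limma test on these summit reads, where 2.14% of promoters did, and 3 members (7.14%) had an unadjusted p under 0.05, as did 16.8% of promoters. The smallest adjusted p was 0.109, for Ddx21, an RNA helicase of the nucleolus. Its scaled summit reads were 100.2, 92.6 and 108 in Control and 72.6, 69.4 and 76.9 in MMF. All 3 MMF samples were below all Control samples for Ddx21 and 8 more members, namely Polr1b, Ubtf, Npm1, Nop56, Nop14, Gnl2, Bop1 and Wdr43, against a background of 17.8%. None was higher in that way, where 6.11% of promoters were.

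Among the subunits of RNA polymerase I, the promoter summit of Polr1a, the largest subunit, had 96.0, 107 and 109.6 scaled reads in Control and 93.5, 84.99 and 105 in MMF. For Polr1b, the second subunit of the catalytic core, the values were 85.1, 85.3 and 93.5 against 82.5, 76.5 and 75.4. Polr1b samples separated and Polr1a samples did not, and the log2 ratios of -0.14 and -0.17 were near that of all members. Rrn3, the factor that ties the polymerase to its promoter, had 81.0, 75.2 and 66.1 against 69.3, 72.2 and 65.0. Ubtf had 98.8, 111 and 102 against 85.8, 97.7 and 84.3, a log2 ratio of -0.22. For these single genes, 3 samples against 3 can give no two-sided exact permutation p below 0.1, which is the value for Polr1b and Ubtf; it was 0.2 for Polr1a and 0.4 for Rrn3.

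Upward differences in summit reads were smaller in number and all overlapped. Taf1c was the highest, with 59.0, 37.6 and 40.3 in Control and 50.6, 63.7 and 47.3 in MMF, a log2 ratio of 0.26. Utp20, Nolc1 and Nat10 followed at 0.11, 0.10 and 0.08. The lowest after Ddx21 (-0.46) were Gnl2 (-0.39), Nop14 (-0.38) and Pes1 (-0.33), of which Gnl2 and Nop14 separated the groups. Npm1 had 156, 130 and 124 against 115, 122 and 102, and Fbl, the methyltransferase of box C/D snoRNPs, had 87.8, 78.1 and 75.8 against 51.7, 72.2 and 84.3.

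The 10 kb around a summit gave a clearer difference than the summit itself. MACS2 compares a peak with the reads in the surrounding 10 kb, and this local count could be recovered from the lists for every member. It is given here per genome-wide background, so that 1 is the level of the genome at large, and is called the 10-kb read density. The window reaches beyond the promoter into the gene body and any neighbouring gene. Members said to fall, rise or lose density did so over this window, and not at the promoter alone. Over the members its median was 5.27, 5.26 and 5.43 in Control and 4.61, 4.58 and 4.58 in MMF, with every MMF sample below every Control sample. Over all promoters it was 4.22, 4.23 and 4.26 against 3.99, 4.12 and 4.06. The measure was chosen after the lists had been seen.

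By limma on log2 10-kb density, 13 members fell with MMF (31.0% of 42), where 10.9% of all promoters did, and 2 rose (4.76%), where 4.81% did. With any 1 sample left out, 5 to 8 members fell and 0 rose, where 3.07% to 4.98% of all promoters fell and 1.91% to 2.62% rose. The median log2 ratio was -0.19 over the members, -0.07 over all promoters and -0.08 over the 200 promoters nearest to each member in density, and 30 members lay below their own neighbours. The groups did not overlap for 24 members that were lower, against a background of 28.4% of promoters, and for 2 that were higher, against 10.9%. Scaled by the sum over promoters, which moved the median of all promoters up by 0.13, the calls were 5 lower (Nop56, Npm1, Ncl, Ddx21 and Wdr43) and 2 higher (Utp20 and Rrp12), while over all promoters they went from 1272 lower and 563 higher to 351 lower (3%) and 1406 higher (12%). Relative to all promoters the members' median was 0.11 lower on the log2 scale, and 31 members lay below the median of all promoters. Both values are the same under either scaling by construction, because a scaling shifts every promoter of a sample alike.

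**Figure D2:**
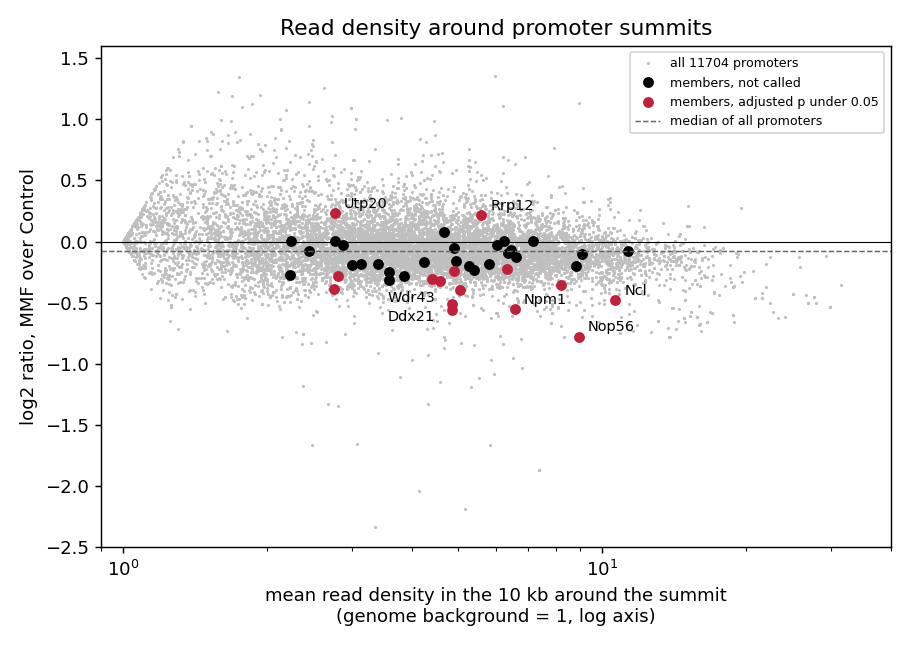
Log2 ratio of MMF over Control (vertical axis) against the mean 10-kb read density (horizontal log axis, genome background = 1) for 11704 promoters in grey (17 non-members beyond a density of 40 are not drawn), members in black, and the 15 members with an adjusted p under 0.05 in red. Nop56 lies lowest of the members, Npm1, Ncl, Ddx21 and Wdr43 follow, and Utp20 and Rrp12 are the 2 red points above zero.

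Nop56 on chromosome 2 lost most 10-kb density. Its promoter peaks lay within chr2:130273810-130274855. The 10 kb around their summits, a window wider than that region, had densities of 12.1, 11.9 and 11.1 in Control and 6.98, 6.44 and 7.05 in MMF. This was a log2 ratio of -0.78 ± 0.06 (SE, limma adjusted p = 0.00332). Counted in reads, the 10 kb held 586, 548 and 460 in Control and 423, 303 and 318 in MMF, while the summit held 101, 98 and 82 against 108, 81 and 78. The summit therefore lost less than its surroundings: the log2 ratio of its scaled reads was -0.24, and the fold enrichment of 10.4, 10.7 and 10.5 became 14.8, 14.8 and 13.7. The rise of Nop56 in rank, given before, is a ratio of these quantities and no separate measurement.

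Npm1 on chromosome 11 (chr11:33162669-33163566) had 10-kb densities of 7.80, 8.005 and 8.05 in Control and 5.81, 5.18 and 5.28 in MMF, a log2 ratio of -0.55 ± 0.06 (limma adjusted p = 0.00662). Ncl on chromosome 1 (chr1:86358679-86360146) had 13.2, 12.5 and 11.97 against 8.74, 8.78 and 9.56, a log2 ratio of -0.48 ± 0.06 (limma adjusted p = 0.00904). At Ncl the scaled summit reads overlapped, with 134, 119 and 126 in Control and 121, 115 and 126 in MMF. For Ddx21 (chr10:62601919-62602903) the densities were 5.33, 6.12 and 6.31 against 4.11, 3.80 and 4.12, and the log2 ratio of -0.56 ± 0.08 (limma adjusted p = 0.0125) was near that of its summit, -0.46. These 4 members were called whichever sample was left out.

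The bases just before the first annotated start are shown for Nop56, Npm1 and Ncl, the members with the smallest adjusted p, as 100 bases on the gene's strand of GRCm38.p6 with any of the 6 motifs in capitals.
Nop56, chr2:130274330-130274429, + strand: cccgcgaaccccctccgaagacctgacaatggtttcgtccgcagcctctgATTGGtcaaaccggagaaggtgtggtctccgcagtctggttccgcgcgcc
Npm1, chr11:33163207-33163306, - strand: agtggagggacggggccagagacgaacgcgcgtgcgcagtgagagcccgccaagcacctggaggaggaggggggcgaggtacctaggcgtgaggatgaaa
Ncl, chr1:86359401-86359500, - strand: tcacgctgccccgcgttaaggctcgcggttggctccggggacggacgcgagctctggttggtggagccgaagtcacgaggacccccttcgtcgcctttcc
Only the window of Nop56 held a motif, 1 CCAAT box read on the opposite strand, and their GC contents were 63%, 67% and 68%.

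The other 9 members that fell, some of which are named here because of their values, lay in 4 of the 7 roles. Of the 6 fits with 1 sample left out, Gnl3l and Wdr43 were called in 5, Nop58 in 2 and Polr1b and Fbl in 1, while Polr1a, Nop14, Utp15 and Gnl3 were called in 0. In RNA polymerase I, Polr1a had densities of 5.41, 5.10 and 5.51 against 4.62, 4.29 and 4.66 (log2 ratio -0.24, limma adjusted p = 0.0387), and Polr1b had 2.80, 3.47 and 3.19 against 2.44, 2.42 and 2.35 (-0.39, 0.0344). Both separated the groups, and so did Polr1c, Polr1d and Polr1e, which were not called. Of all promoters 28.4% were lower without overlap in the same way. In the snoRNPs, Fbl fell by 0.32 and Nop58 by 0.39 on the log2 scale. Among small-subunit factors, Wdr43, Nop14 and Utp15 fell by 0.51, 0.36 and 0.31. Of the nucleolar GTPases, Gnl3l fell by 0.28 and Gnl3, known as nucleostemin, by 0.23.

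The 8 members grouped as factors of RNA polymerase I had no call, and their median log2 ratio was -0.05. Ubtf had 11.2, 11.6 and 12.1 in Control and 11.1, 11.05 and 10.98 in MMF, which did not overlap, and Rrn3 had 2.92, 3.12 and 2.68 against 2.92, 2.66 and 2.99. The 6 large-subunit factors had no call either, with a median of -0.12. The medians were -0.24 over 5 polymerase subunits, -0.26 over 6 snoRNP proteins, -0.48 over 5 nucleolar proteins, -0.18 over 9 small-subunit factors and -0.23 over 3 GTPases. Differences between these roles were not tested.

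**Figure D3:**
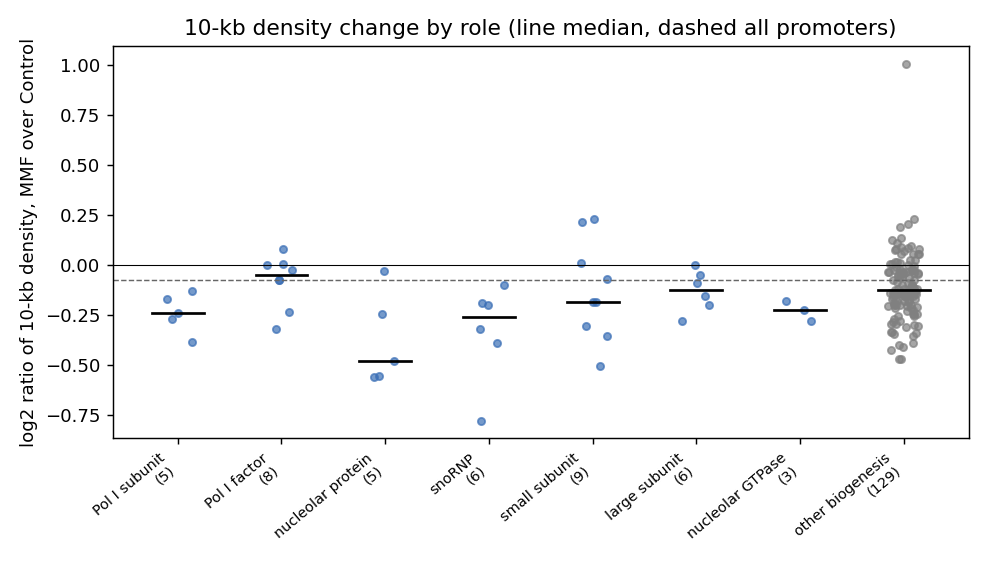
Log2 ratio of 10-kb read density, MMF over Control (vertical axis), for each member by role and for 129 other ribosome biogenesis genes, with the number of genes in brackets, black lines at the medians and a dashed line at the median of all promoters (-0.07). The 5 nucleolar proteins have the lowest median, -0.48, and the median of the 8 RNA polymerase I factors lies nearest to that of all promoters.

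Utp20 and Rrp12, which act in small-subunit assembly, rose. Utp20 had densities of 2.57, 2.62 and 2.47 in Control and 2.94, 3.12 and 2.93 in MMF (log2 ratio 0.23, limma adjusted p = 0.0328). Rrp12 had 5.21, 5.12 and 5.25 against 5.99, 5.97 and 6.12 (0.22, adjusted p = 0.0203), although its scaled summit reads, 60.4, 82.4 and 70.9 against 78.1, 66.6 and 57.6, overlapped and its summits lay up to 399 bp apart. With any 1 sample left out neither was called, and their log2 ratios then ran from 0.20 to 0.25 for Utp20 and from 0.20 to 0.22 for Rrp12.

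**Figure D4:**
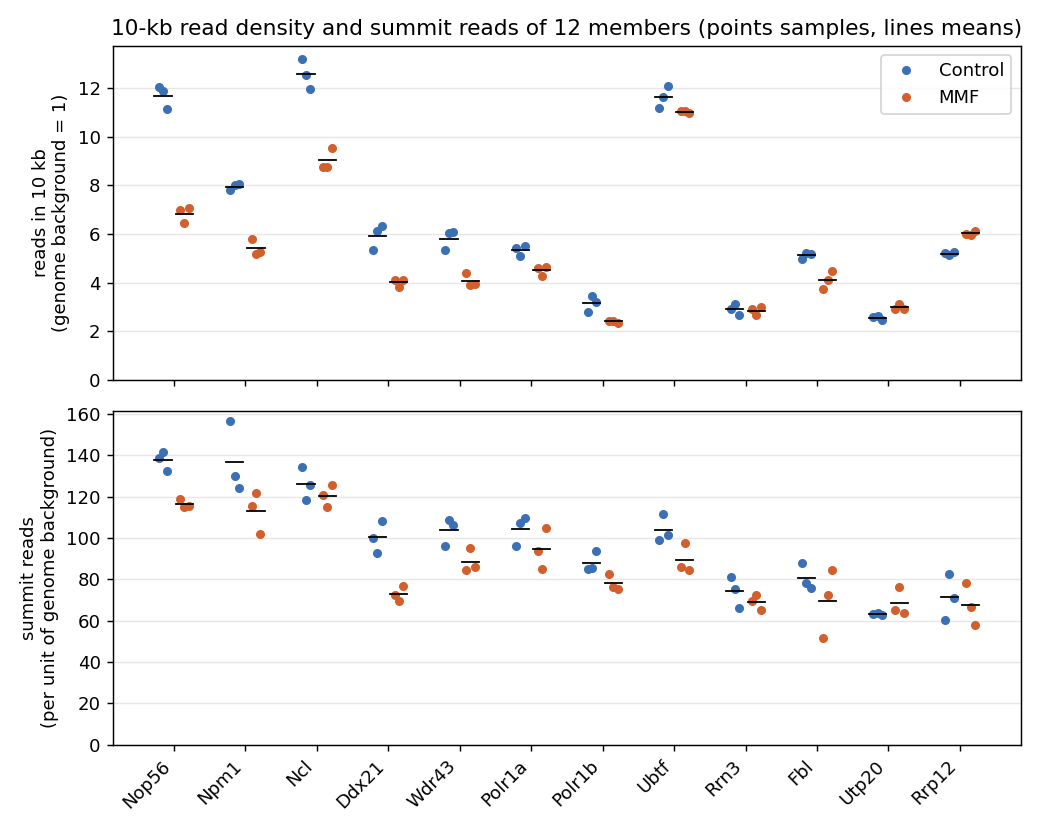
10-kb read density (upper panel, genome background = 1) and summit reads per unit of genome background (lower panel) for 12 members, with 1 point per sample and lines at the means of 3 Control samples (blue) and 3 MMF samples (orange). The orange points of Nop56, Npm1, Ncl, Ddx21 and Wdr43 lie below the blue ones in the upper panel, while those of Ncl overlap in the lower panel.

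Small nucleolar RNA genes, which lie in introns of some members and guide the modification of ribosomal RNA, were annotated within the 10 kb of 3 members: 5 at Nop56, 3 at Gnl3 and 1 at Ncl. All 3 members were among the 13 that fell, and none of the other 29 members had one. Over all promoters 1.19% had such a gene in the 10 kb, and over the promoters that fell 4.64% did.

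Within the gene bodies of the members, outside all promoters, 67 regions held a peak in at least 1 list, in 27 members. Regions gained, present in every MMF list and absent from every Control list, were 6 (8.96%), where 6.68% of gene-body regions of all genes were gained. They lay in Dkc1, Gnl2, Ncl, Nob1, Rrn3 and Utp20, which are named because of this count. None was lost, against a background of 0.172%. The larger number of peaks in the MMF lists enters all such counts.

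Further genes of the pathway were measured in the same way. Of 130 other ribosome biogenesis genes, 129 had a promoter peak in all 6 lists, and their rank differences had a median of 0.05 percentage points with no call. Their 10-kb density had a median log2 ratio of -0.13, and 18 fell (14.0%) and 1 rose, Fcf1 by 1.01, chosen here for its value. Over all promoters the median was -0.07, and 10.9% fell and 4.81% rose. The 18 were 3 of 11 exosome genes, 3 of 11 RNA polymerase III genes, 3 of 12 subunits and partners of RNA polymerase I, 1 of 11 snoRNP genes, 4 of 45 large-subunit and 4 of 40 small-subunit factors. Of 76 ribosomal protein genes with a peak in all lists, 40 fell (52.6%) and none rose, and their median was -0.27. Whether the members differed from these lists was not tested.

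Promoters of cell type markers were read in the same lists. The 4 B-cell and 4 T-cell markers had no promoter peak in any list. Of 13 markers of mature myeloid cells, 8 had a peak in all lists, and Mmp9 was without a peak in any. The scaled summit reads summed over all 13 rose from 230 to 277 in Control to 473 to 496 in MMF. In each sum given here, a marker without a called peak in a list added no reads for that list. The MMF lists held more peaks than the Control lists. How much of the rise came from markers called in only some lists was not tested. The 11 markers of LSCs or granulocyte-macrophage progenitors summed to 475 to 524 in Control and 453 to 526 in MMF, with Mpo and Prtn3 without a peak. The sum over 5 erythroid markers was 122 to 150 against 130 to 136, and that over 3 megakaryocyte markers 30.2 to 36.2 against 38.5 to 39.9. A peak in all lists was found for 6 of the 11 LSC or progenitor markers, 1 of the 5 erythroid and 2 of the 3 megakaryocyte markers. The part of the mature myeloid signal in the lower density around members was not tested.

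The template of RNA polymerase I, the ribosomal DNA, could be read at 1 place. The RNA genes Gm42418 and Gm26917 on chromosome 17 resemble ribosomal RNA and gather reads of the many ribosomal DNA copies, and each list held 1 broad peak there, from about chr17:39842970 to 39848800. The 10 kb around its summit had densities of 4043, 4173 and 3866 in Control and 3096, 3364 and 3269 in MMF, which did not overlap (mean ± SD, 4027 ± 154 and 3243 ± 136, n = 3 each, two-sided exact permutation p = 0.1, the smallest possible), a difference of -19.5%. At the peak with the highest local count elsewhere, a repeat on chromosome 2, the densities were 5470, 5354 and 5556 against 4455, 4468 and 4428, a difference of -18.5%. The ratio of the former to the latter was 0.738 ± 0.042 in Control and 0.729 ± 0.030 in MMF (exact permutation p = 0.7). The 17 promoters with a 10-kb density above 40, none of them a member, had a median log2 ratio of -0.25. How reads of repeated sequence were placed or filtered is not given in the sources used here, and copy number, accessibility and the share of background reads cannot be told apart at such loci.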

How the data were processed

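ATAC-seq was measured in 6 samples, and 1 peak list per sample was used. Per the labels the authors' tools included FastQC, Trim Galore, Bowtie2 and MACS2 on mm10, with versions not given in the sources used here. Each deposited narrowPeak list gives the fold enrichment at the summit (a ratio over the local background), −log10 of p and q, a score and the peak's position and summit (other columns), as the authors' caller wrote them, and samples were called separately. The score column was not used.

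A promoter took its peak of highest fold enrichment among peaks overlapping it by at least 1 bp. The fold enrichment and Poisson p were solved for whole summit reads and for the background, which succeeded for 100% of peaks in every list. The most frequent background of a list is its genome-wide level, 41.3 to 48.6 reads per 10 kb in Control and 45.1 to 60.6 in MMF; library totals were not used, and depth is known only in this form. Member summits held 25 to 141 reads and their 10 kb 88 to 670, which limits the precision of each value to that counting. limma 3.58.1 in R 4.3.3 tested all 11704 promoters with a peak in all 6 lists at an adjusted p of 0.05, without replicate block, and single members had two-sided exact permutation tests. On simulated data with the same spread, 52% of 200 promoters shifted by 0.5 on the log2 10-kb density were recovered, 93% of those shifted by 1 and none of those shifted by 0.25. For summit reads 74.5% of those shifted by 1 were. All other promoters were left unshifted, whereas 15.7% of promoters were called by density in the real data. The adjustment for density was therefore stricter in the simulation, and these shares do not give the sensitivity of the real density test.

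Values given for every sample cover Polr1a, Polr1b, Ubtf, Rrn3, Ncl, Npm1 and Fbl and members among the 4 largest rises and falls in rank or summit reads; others named are said to be chosen for their values. The members and gene lists were chosen with earlier results of these data known. Of the members, 34 matched the RefSeq promoter table, and printed sequences were read from GRCm38.p6 by coordinates.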

Additional observations from a re-analysis of the deposited data

How the results depend on the processing

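With every list cut to equal length the members' median rank difference was -1.83 and that of the other ribosome biogenesis genes -2.57 percentage points, with 13 members higher, 8 not overlapping (7 of them lower, where 33.0% of promoters were) and 1 called (Ubtf, where 5.51% of promoters were), and ranked among promoters only the members' median was 2.81. By summit reads 7 members were higher, 9 did not overlap, and the other biogenesis genes had a median of -0.11. Scaling by the sum over promoters gave -0.011 for the median of summit reads, -0.061 for that of 10-kb density and 7 members called by density (15.01% of promoters). Leaving out 1 sample at a time gave 5 to 8 members called by density (8 without Control replicate 1, 5 without Control replicate 3 or MMF replicate 1, where 4.98% to 7.44% of promoters were), a median density from -0.20 to -0.17, a median of summit reads from -0.21 to -0.12, 19 to 26 members higher in rank with a median from -0.24 to 0.65 (negative without Control replicate 2), and no call by rank or summit reads. Nop56, Npm1, Ncl and Ddx21 were called in all of those. Deviations of same-numbered samples correlated by -0.00123 to 0.0217 in rank and 0.0239 to 0.0516 in density. For differently numbered samples the values ran from -0.0192 to 0.0157 in rank and from -0.0648 to 0.0338 in density. With 3 samples per group such values cannot show whether the replicate numbers pair samples. With the replicate number as a block, 2 members (4.76%) were called by density (Nop56 and Npm1), where 3.12% of promoters were, and 0 by rank or by summit reads. Of 177 alternatives for the 15 called members 104 kept the call, and none changed the sign; among 171 alternatives for 19 members named by rank or summit reads, none of which was called at first, 25 changed the sign. No simulated density shift of 0.25 was recovered, but few promoters were shifted there and the adjustment was stricter. In the real data 4 members with smaller differences were called. A missed threshold does not show that a member did not change.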
